A study of Mus musculus with 405 samples.

Results

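Carbamate insecticides inhibit acetylcholinesterase, and 9 of them were represented in a screen of 297 chemicals on mouse cortical neuron cultures. They were found by chemical name in the titles of the libraries: 9 of the 10 names searched had a library, methiocarb did not, and the 9 libraries were among 393 in the expression table, 49 of which came from vehicle. Aldicarb, bendiocarb, carbaryl, formetanate hydrochloride, methomyl, oxamyl, pirimicarb and propoxur were applied at 10 µM. Thiodicarb was applied at 1 µM. Each compound had 1 library, so no compound had a replicate of its own.

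Every culture, vehicle included, came from the cortex of embryonic day 15 hybrids of C57BL/6J dams and CAST/EiJ males, received 5-fluoro-2′-deoxyuridine and uridine 5′-triphosphate against dividing cells, and was exposed on day 7 in culture for 24 h before polyadenylated RNA was sequenced. Vehicle was dimethylsulphoxide. Concentrations had been chosen by the study as not cytotoxic in these cultures. The cultures were mostly neurons with other brain cells beside them, and in bulk RNA fewer cells of a type and less RNA per cell cannot be told apart.

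Acetylcholinesterase ends cholinergic signalling by splitting acetylcholine, and carbamates occupy its active site by passing a carbamoyl group to the catalytic serine, which is released again slowly. Acetylcholine then stays longer at muscarinic receptors, which couple to G proteins, and at nicotinic receptors, which are ion channels. In the cortex most acetylcholine comes from axons of basal forebrain neurons, which lie outside the cortex, together with a small group of local cholinergic interneurons. Aldicarb, methomyl and oxamyl are oxime esters of N-methylcarbamic acid, whereas bendiocarb, formetanate and propoxur are phenol esters and carbaryl is a naphthol ester of the same acid. Pirimicarb is a dimethylcarbamate of a pyrimidine, and thiodicarb consists of methomyl units joined through sulfur.

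Values of the screen are given as log2 differences from the mean of the 49 vehicle libraries, because the deposited table holds deviations from each gene's median and no levels. Levels of genes were therefore taken from 3 vehicle libraries of another experiment of the series, for which counts were deposited, with totals of 2778615 to 7833440 counts. In these 3 libraries the neuronal gene Map2 was at 1744 ± 115 CPM (counts scaled to a common library total, SD, n = 3), the astrocyte gene Gfap at 22.5 ± 4.40 CPM, the oligodendrocyte lineage gene Olig2 at 5.55 ± 0.781 CPM and the mural cell gene Pdgfrb at 2.38 ± 0.523 CPM. The microglial gene Aif1 had 0 or 1 count per library, although Cx3cr1, another microglial gene, was at 5.31 ± 1.72 CPM. Labels name no batch, and the authors had removed batch effects from the screen, so no value within batches could be given.

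The target and its neighbours were expressed while the machinery for making acetylcholine was near the limit of detection. Ache, which encodes acetylcholinesterase (mm9 chr5:137728747-137735694, plus strand, protein coding), was at 47.4 ± 12.0 CPM and Bche, the gene of the related butyrylcholinesterase (chr3:73439730-73512337, minus strand), at 2.92 ± 0.991 CPM. Chat, the enzyme that makes acetylcholine, had counts of 0, 0 and 2 in the 3 vehicle libraries. Slc18a3, the vesicular acetylcholine transporter, had 3, 7 and 0 counts and Slc5a7, the choline transporter of cholinergic terminals, had 2, 3 and 5. The last 3 genes, with Colq and Prima1, which anchor the enzyme, were not among the 13304 genes of the screen.

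Ache did not stand apart from vehicle in any of the 9 carbamates. Its log2 difference from the vehicle mean was 0.56 in methomyl, 0.45 in formetanate, 0.16 in both aldicarb and thiodicarb, 0.06 in propoxur, -0.12 in carbaryl, -0.21 in bendiocarb, -0.23 in pirimicarb and -0.45 in oxamyl. The 49 vehicle libraries lay between -0.57 and 0.82, with a median of -0.07, so that every carbamate was inside their range. Over the 9 carbamates the difference was 0.04 ± 0.12 (SE), with a 95% interval from -0.19 to 0.28 (limma, adjusted p = 0.982).

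Bche was at -0.38 in thiodicarb, -0.16 in methomyl and -0.06 in carbaryl, and between 0.09 and 0.33 in the other 6, against -1.56 to 0.83 in vehicle. All 9 values were inside the vehicle range, and the group difference was 0.05 ± 0.16 (SE, limma, adjusted p = 0.983). Slc44a1, a choline transporter of many cell types (8.17 ± 1.34 CPM), was the cholinergic gene with the smallest unadjusted p over the 9 compounds. It was at -0.98 in thiodicarb, -0.86 in oxamyl, -0.77 in aldicarb, -0.67 in bendiocarb, -0.43 in formetanate, -0.11 in methomyl, -0.08 in carbaryl, 0.09 in pirimicarb and 0.63 in propoxur. The first 3 of these lay below the lowest of the 49 vehicle libraries, at -0.73, and the other 6 inside their range. The group difference of -0.35 ± 0.13 (SE) did not pass the adjustment over all genes (limma, adjusted p = 0.649).

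Receptor genes gave no call either. All 5 muscarinic receptors, Chrm1 to Chrm5, and 6 of 16 nicotinic subunits (Chrna3, Chrna4, Chrna5, Chrna7, Chrnb1 and Chrnb2) were in the screen, and in each of them all 9 carbamates lay inside the vehicle range. Chrm1, a Gq-coupled receptor of cortical neurons (42.7 ± 3.79 CPM), ranged from -0.37 in aldicarb to 0.39 in bendiocarb, with a group difference of 0.07 ± 0.08 (SE). Chrnb2, the subunit that joins Chrna4 in the common high-affinity receptor of the brain, was at 109 ± 5.37 CPM and ranged from -0.24 in aldicarb to 0.03 in oxamyl, with a group difference of -0.09 ± 0.05 (SE). CPM is not divided by gene length, so it shows how many reads stood behind a gene and not which gene was higher.

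Chrna7, the subunit of the homomeric receptor, ranged from -0.49 in propoxur to 0.52 in bendiocarb, with 5 compounds above and 4 below the vehicle mean. Chrm2, often a presynaptic receptor, was below the vehicle mean in 7 of 9 compounds and highest in carbaryl, at 0.88. Chrm5, at 1.61 ± 0.446 CPM, had the widest spread among the carbamates, from -1.43 in formetanate to 0.76 in carbaryl, and vehicle spanned -1.62 to 1.44. The group differences of Chrm2, -0.21 ± 0.16, and Chrm5, -0.30 ± 0.27 (SE), did not pass the test.

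**Figure D1:**
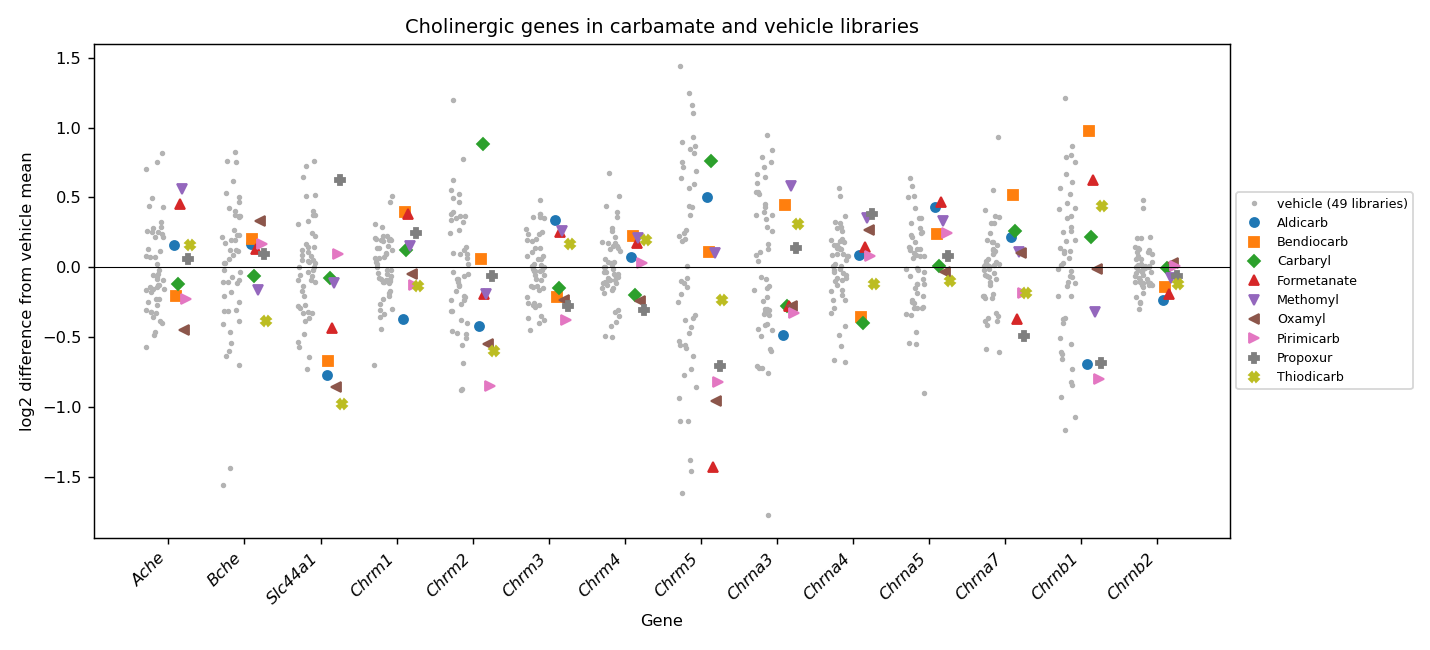
Log2 difference from the vehicle mean (vertical axis) of the 14 cholinergic genes in the screen, with grey points for the 49 vehicle libraries and coloured symbols for the 9 carbamates, 1 library each. Apart from Slc44a1, where thiodicarb, oxamyl and aldicarb lie below the lowest vehicle library, the carbamates lie within the grey points.

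Taken as one group, the carbamates changed no gene by the test across all genes. Of 13304 genes, 0 were called at an adjusted p below 0.05 (limma, 0% called), while 758 (5.70%) had an unadjusted p below 0.05. The smallest adjusted p was 0.118. The group held thiodicarb at 1 µM beside the 8 compounds at 10 µM, and without thiodicarb Hrk was called, as described below. The 95% interval lay within 1 log2 unit of zero for 98.2% of genes and within 0.5 for 82.5%, so for most genes a shared difference of more than 1 log2 unit lay outside the interval.

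The 5 genes with the smallest p did not pass and are given as values. Hrk, which encodes a BH3-only protein that promotes neuronal apoptosis, was at 0.79 in oxamyl, 0.61 in formetanate, 0.50 in aldicarb, 0.46 in carbaryl, 0.36 in both pirimicarb and propoxur, 0.27 in bendiocarb, -0.01 in thiodicarb and -0.12 in methomyl. Vehicle ranged from -0.47 to 0.51, so oxamyl and formetanate lay above it and the other 7 within it. The group difference was 0.36 ± 0.08 (SE, limma, adjusted p = 0.118). It passed without methomyl (0.42, limma, adjusted p = 0.0137) or without thiodicarb (0.40, limma, adjusted p = 0.0427). These compounds had the lowest values, so leaving either out raises the difference and gives no independent support.

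Folh1, a peptidase that splits N-acetylaspartylglutamate, was below the vehicle mean in 8 of 9 compounds, from -1.77 in thiodicarb to -0.32 in aldicarb, and at 0.99 in pirimicarb. The lowest vehicle library was at -0.76. Without pirimicarb, the group difference moved from -0.81 ± 0.17 to -1.04 ± 0.16 (SE) and passed (limma, adjusted p = 0.000184), in a gene at 0.992 CPM in the 3 vehicle libraries. Pirimicarb is the only dimethylcarbamate of the 9. Its 1 library decided this call. Only pirimicarb was above the vehicle mean, so leaving it out enlarges the difference, and the call is no independent support.

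Msx2, a homeobox transcription factor, had a group difference of -1.04 ± 0.23 (SE) with carbaryl alone above the vehicle mean, at 0.38. Without carbaryl it passed, at -1.21 (limma, adjusted p = 0.047), which is no independent support for the same reason. Msx2 was at only 1.04 ± 0.676 CPM in the 3 vehicle libraries with counts. Tnks1bp1, a tankyrase-binding protein, and Mpst, an enzyme that makes hydrogen sulfide from cysteine products, were above the vehicle mean in 9 of 9 compounds. Their differences were 0.21 ± 0.05 and 0.33 ± 0.08 (SE), and both had an adjusted p of 0.219. For Tnks1bp1 the carbamates spanned 0.11 to 0.37 and vehicle -0.23 to 0.27, so the groups overlapped.

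Single compounds differed from vehicle in few genes. The test for a compound set its 1 library against the 49 vehicle libraries and took the spread from the latter, so it compares cultures and has no replicate check for the compound. Bendiocarb gave 10 calls of 13304 (0.0752%), carbaryl 7 (0.0526%), formetanate and pirimicarb 5 each (0.0376%) and aldicarb 3 (0.0225%). Methomyl, oxamyl, propoxur and thiodicarb gave 1 each (0.00752%). These are 34 calls in 34 genes (0.0284% of 119736 tests), with 0 genes called in more than 1 compound, and 30 of them were lower than vehicle.

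By the same test the 335 libraries of other chemicals had a median of 8 calls, from 0 to 1616, and the 35 libraries of organophosphates, the other large class of cholinesterase inhibitors, a median of 9, from 0 to 429. Bendiocarb was above both medians and the other 8 carbamates were below both. Of all calls in the 335 libraries of other chemicals, pooled, 83.5% were lower than vehicle as well. Libraries with many calls, up to 1616, weigh most in this share, and topotecan libraries are among the 335. No share for each library was made, so the pool does not show how falls and rises divide in a library with few calls. In the pool a majority of falls was thus not particular to the carbamates. In 21 of the 34 called genes all other 8 carbamates were inside the vehicle range, and in the rest at least 1 of them was outside it as well. In 25 of 34 calls no other of the 393 libraries was as far from vehicle in that gene, and in all 34 no vehicle library was. Both counts took only libraries on the same side of the vehicle mean. Calls were chosen by their distance from these same vehicle libraries, so the latter count is no separate support. The difference in calls between carbamates and other chemicals was not tested.

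Most of the large falls were of genes with little RNA. Of the 34 calls, 20 were falls of more than 2 log2 units, and all 20 of these genes were under 10 CPM in the count table's vehicle libraries, where 30.9% of the 13304 genes were. The part of low counts in these calls was not tested.

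**Figure D2:**
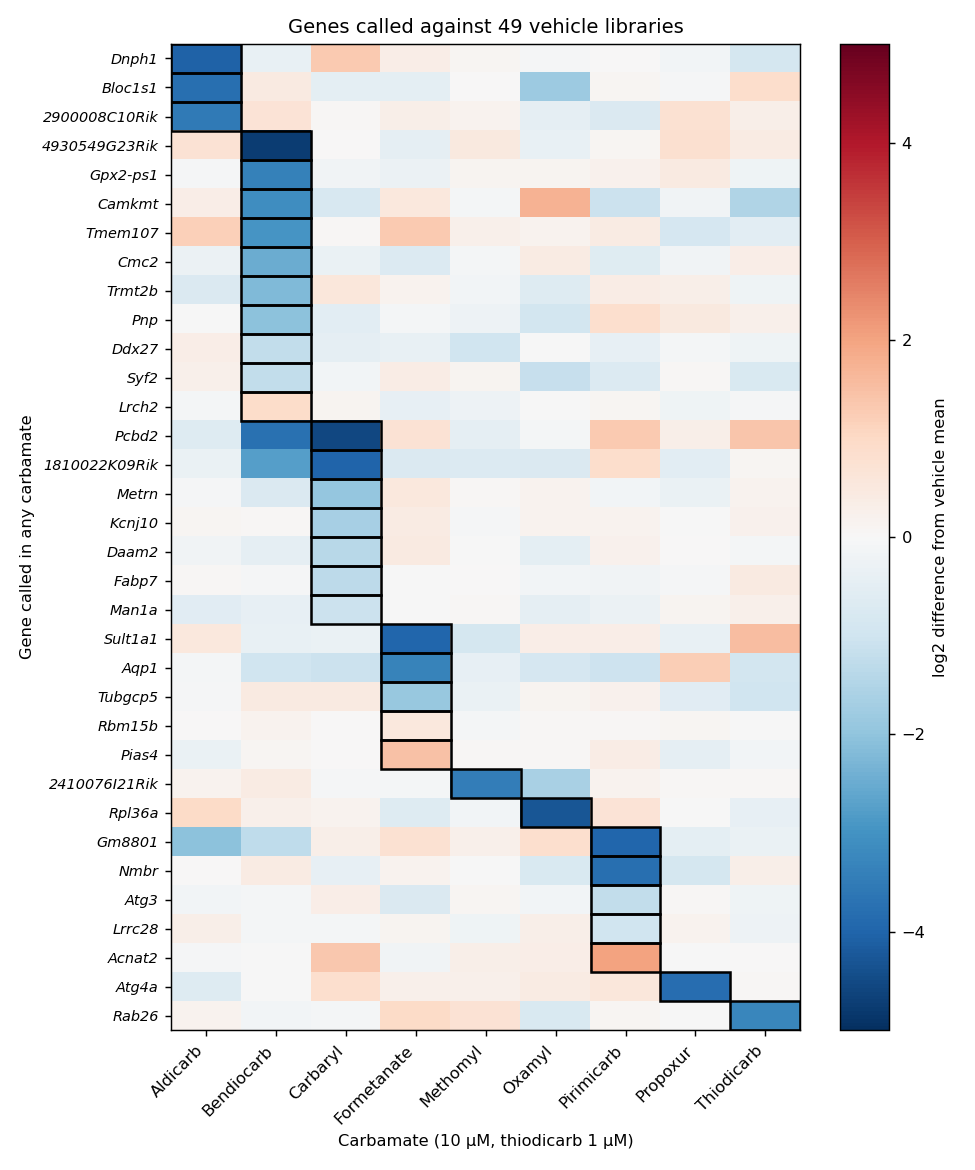
Heat map of the 34 genes called in any carbamate (rows) in the 9 carbamates (columns), coloured by log2 difference from the vehicle mean. Black frames mark the calls, which form a staircase with 1 frame per gene, and 30 of 34 are lower (blue).

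All 7 calls of carbaryl were lower than vehicle. Kcnj10, the inwardly rectifying potassium channel Kir4.1 by which astrocytes take up potassium (mm9 chr1:174271341-174304216, plus strand), had the smallest adjusted p. Fabp7, the fatty acid binding protein of radial glia and astrocytes, Metrn, a secreted factor of glial differentiation, and Daam2, a formin of Wnt signalling, were called with it. The other 3 were Man1a, a Golgi mannosidase, Pcbd2, a pterin dehydratase, and 1810022K09Rik, of which no function is given here.

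Kcnj10 was at -1.66 ± 0.22 (SE) in carbaryl (limma, adjusted p = 1.59e-05), while the other 8 carbamates lay between -0.05 and 0.42 and vehicle between -0.75 and 0.33. Carbaryl was the lowest of all 393 libraries in this gene. Fabp7 was at -1.32 ± 0.27 (adjusted p = 0.0238) and Daam2 at -1.38 ± 0.26 (adjusted p = 0.0139). The other 8 carbamates spanned -0.18 to 0.45 in Fabp7 and -0.49 to 0.47 in Daam2, so carbaryl was apart from them in both.

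Metrn was at -1.92 ± 0.38 (SE, limma, adjusted p = 0.0201) and Man1a at -1.09 ± 0.22 (adjusted p = 0.0238), and both were lower in carbaryl than in any other library. Kcnj10 and Fabp7 were at 65.3 ± 8.24 and 91.5 ± 8.19 CPM in the 3 vehicle libraries. Pcbd2 (-4.55) and 1810022K09Rik (-4.01) were at 2.57 and 0.551 CPM, and bendiocarb was also low in both, at -3.75 and -2.77.

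Of 9 astrocyte markers listed, 8 were in the screen and none was called, but carbaryl was below the vehicle mean in all 8. Gfap was at -1.83 ± 0.43 (SE, limma, adjusted p = 0.0934) and Aqp4, the water channel of astrocyte endfeet, at -1.68 ± 0.41 (adjusted p = 0.114), and each was the lowest of the 393 libraries. Of the glutamate transporter genes, Slc1a3 was at -0.71 and Slc1a2 at -0.03. The remaining 4 were Aldh1l1 at -1.26, Aldoc at -0.51, Gja1 at -0.31 and Sox9 at -0.27, all inside the vehicle range.

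The median of the 8 markers was -0.61 in carbaryl and lay between -0.18 and 0.44 in the other 8 carbamates. Vehicle medians of the list spanned -0.76 to 0.49, with 1 of 49 below carbaryl, and 7 of the 393 libraries were lower than it. That vehicle library had 810 genes more than 1 log2 unit from the vehicle mean, where the next had 475. Without it carbaryl gave 16 calls, all lower and with the 7 above among them, including Gfap (adjusted p = 0.0493) and Aqp4 (adjusted p = 0.0465), and formetanate 11. The library left out was itself the lowest vehicle library in Aqp4 (-1.17), Kcnj10 (-0.75) and Fabp7 (-0.91), so leaving it out narrowed the vehicle range of these genes, and the added calls are no independent support. In carbaryl the neuron list had a median of -0.08 and the oligodendrocyte list one of -0.25, against vehicle ranges of -0.20 to 0.15 and -0.44 to 0.42. The part of cell number in these values was not tested.

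**Figure D3:**
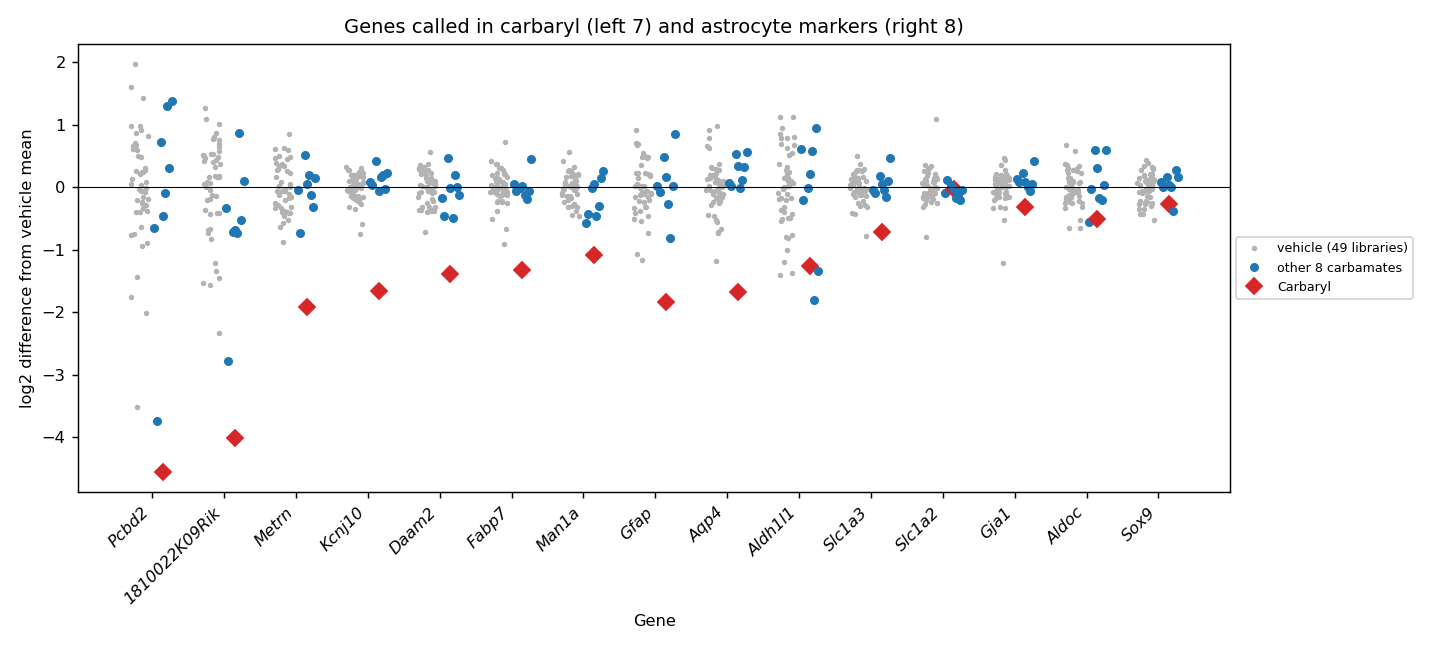
Log2 difference from the vehicle mean (vertical axis) for the 7 genes called in carbaryl and the 8 astrocyte markers in the screen, with carbaryl as red diamonds, the other 8 carbamates in blue and 49 vehicle libraries in grey. Carbaryl lies below all grey points in the 7 called genes, Gfap and Aqp4, and among them in the other 6 markers.

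Bendiocarb had its smallest adjusted p in 2 transcripts in which every other carbamate was inside the vehicle range. Gpx2-ps1, a pseudogene of glutathione peroxidase 2 (mm9 chr7:107413454-107413756, plus strand), was at -3.39 ± 0.36 (SE, limma, adjusted p = 1.03e-08), and 4930549G23Rik at -4.73 ± 0.56 (adjusted p = 2.73e-07). The other 8 carbamates lay between -0.30 and 0.44 in the first and between -0.43 and 0.81 in the second. Both were near 3 CPM (3.30 ± 0.263 and 2.86 ± 0.352), and reads of a pseudogene may be shared with its parent gene, so the first is uncertain.

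Camkmt, which methylates calmodulin, was at -3.11 in bendiocarb and Tmem107, a protein of the ciliary transition zone, at -2.94. The other falls were in Cmc2, Trmt2b, Pnp, Ddx27 and Syf2, from -2.46 to -1.23. In Syf2, oxamyl (-1.14), thiodicarb (-0.75) and pirimicarb (-0.66) were also below the lowest vehicle library, at -0.56, and in Ddx27 methomyl (-0.996) was below it, at -0.59. Lrch2 was the 1 gene higher, at 0.92 ± 0.20 (SE, limma, adjusted p = 0.049), against a highest vehicle value of 0.40. It was at 31.5 ± 5.57 CPM, where the 9 lower genes were at 1.89 to 13.6.

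Formetanate, the N-methylcarbamate with a formamidine group, had the most genes at an unadjusted p below 0.05, 1260 of 13304, against 406 in methomyl, the fewest. Its calls were Sult1a1, a phenol sulfotransferase of xenobiotic metabolism, at -3.97, Aqp1, the water channel of choroid plexus, at -3.34, Tubgcp5, of the γ-tubulin ring complex, at -1.89, Pias4, a SUMO ligase, at 1.46 and Rbm15b, an RNA-binding protein, at 0.54. Sult1a1 and Aqp1 were at about 1 CPM (0.996 and 1.38), whereas Rbm15b was at 128 ± 7.74 CPM. Rbm15b lay between -0.20 and 0.21 in the 49 vehicle libraries and between -0.09 and 0.18 in the other 8 carbamates, so formetanate was above all of them (± 0.11 SE, limma, adjusted p = 0.0365).

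Beside Aqp1, Ttr, the transthyretin gene of choroid plexus, was at -4.29 in formetanate, below the lowest vehicle library at -3.35, but it was not called. Ttr varied widely in vehicle, up to 2.86, and among the other carbamates from -1.23 in propoxur to 1.55 in oxamyl. Foxj1, of ciliated ependymal cells and the other of the 2 measured genes on the list of 4, was at 0.45, and the list median was -1.92 against -1.67 to 1.47 in vehicle. The part of choroid plexus cells in the Aqp1 value was not tested.

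Pirimicarb had 4 lower genes and 1 higher. Acnat2, an acyltransferase of peroxisomes, was at 2.03 ± 0.34 (SE, limma, adjusted p = 0.00372), where the highest vehicle library was at 0.81 and carbaryl, also above it, was at 1.34. Atg3, the conjugating enzyme of LC3 in autophagy, was at -1.25 ± 0.22 (adjusted p = 0.00372) and Lrrc28 at -1.01 ± 0.19 (adjusted p = 0.0125). These 3 genes were at 12.6, 23.5 and 24.6 CPM. Gm8801 (-3.98), annotated as a pseudogene and so uncertain, and Nmbr (-3.76), the neuromedin B receptor, were at 3.35 and 1.41 CPM.

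The remaining calls were falls of genes at 0.919 to 3.52 CPM. In aldicarb they were Dnph1 (-4.04), a nucleotide hydrolase, Bloc1s1 (-3.78), a subunit of an organelle biogenesis complex, and 2900008C10Rik (-3.52). In the other 4 compounds they were 2410076I21Rik in methomyl (-3.44), the ribosomal protein gene Rpl36a in oxamyl (-4.30), the autophagy protease gene Atg4a in propoxur (-3.79) and the vesicle GTPase gene Rab26 in thiodicarb (-3.28). Copies of Rpl36a elsewhere in the genome can take its reads. In Bloc1s1, oxamyl (-1.83) was also below the lowest vehicle library, at -1.35.

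Compounds at 10 µM were compared with each other in all 28 pairs, with p-values adjusted over all pairs and genes together. There were 29 calls in 12 genes (0.00778% of 372512 differences), in 15 of the 28 pairs, with 2 or 3 genes called in each pair of bendiocarb (0.015% or 0.0225%) and 0 to 2 in the rest. Of the 29 calls, 25 were in pairs with bendiocarb or carbaryl. Gpx2-ps1 and 4930549G23Rik were lower in bendiocarb than in each of the 7 others. Bendiocarb minus formetanate was -3.09 and -4.30, and bendiocarb minus propoxur -3.83 and -5.54, the ends of the range. Each library entered 7 pairs, so calls of a gene in several pairs reuse the same value. They are no support beyond the calls against vehicle.

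Kcnj10 was lower in carbaryl, the naphthol ester, than in 6 of the 7 others. Against the phenol esters the difference was -2.08 ± 0.31 for formetanate (SE, limma, adjusted p = 0.000792), 1.70 ± 0.31 for bendiocarb minus carbaryl (adjusted p = 0.0251) and -1.64 ± 0.31 for propoxur (adjusted p = 0.0447). Against oxamyl it was -1.82 and against pirimicarb -1.85, and aldicarb minus carbaryl was 1.75. Against methomyl it was -1.61, with an interval from -2.24 to -0.98, and narrowly missed the threshold (adjusted p = 0.0512). Among the other 7 compounds no pair was called in Kcnj10.

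The 3 oxime esters gave 0 calls in their 3 pairs (limma, with 499, 589 and 694 genes at an unadjusted p below 0.05). That does not show that they act alike, since for a difference between 2 single libraries the median half-width of the 95% interval was 0.715 log2 units and only 52.5% of intervals for aldicarb minus methomyl lay within 1 unit of zero. The pair of them nearest to a call was aldicarb and oxamyl in Fam132a, a secreted adipokine-like protein, at -2.86 and 1.86 (difference -4.72 ± 0.92 SE, limma, adjusted p = 0.0512), and it passed with a variance trend (adjusted p = 0.0499) and among variable genes only (adjusted p = 0.0256). Aldicarb minus methomyl was -4.13 in Dnph1, with an interval from -5.94 to -2.32 (adjusted p = 0.163). Methomyl minus oxamyl was 4.18 in Rpl36a (adjusted p = 0.465).

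The largest difference of methomyl from either partner was in 0610040B10Rik, at -3.68 in methomyl, 2.07 in aldicarb and 3.06 in oxamyl. Vehicle spanned -4.07 to 3.71 in that gene, and neither difference passed. Ache itself differed most between methomyl and oxamyl, by 1.01, with a 95% interval from 0.10 to 1.92 (limma, adjusted p = 0.931). Slc44a1 differed most between oxamyl and propoxur, by -1.49, with an interval from -2.45 to -0.52 (adjusted p = 0.667).

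Among the phenol and naphthol esters, bendiocarb and propoxur, which both carry an alkoxy group beside the ester, differed in 2 genes, the 2 bendiocarb transcripts named above. Carbaryl and propoxur differed in Kcnj10 and in Atg4a, which was 4.64 ± 0.89 (SE) higher in carbaryl (limma, adjusted p = 0.0499). The largest fall of carbaryl against propoxur, -4.86 in Pcbd2, did not pass (adjusted p = 0.427). Bendiocarb minus carbaryl was largest in Tnfrsf18, a TNF receptor family member, at 3.89, which also did not pass (adjusted p = 0.342).

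Formetanate differed from propoxur in Fam111a, a protease of DNA replication (-2.14 ± 0.40), and the linker histone Hist1h1c (1.60 ± 0.30, SE), from pirimicarb in the zinc finger gene Zfp771 (1.99 ± 0.35) and from aldicarb in the respiratory chain subunit Cox7a2, where aldicarb minus formetanate was 1.76 ± 0.31. Adjusted p-values of these were between 0.0134 and 0.0445 (limma). The rest were Dnph1 (aldicarb below carbaryl), Atg3 (carbaryl above pirimicarb), Camkmt (bendiocarb below oxamyl) and Tmem107 (bendiocarb below formetanate), genes already called against vehicle.

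**Figure D4:**
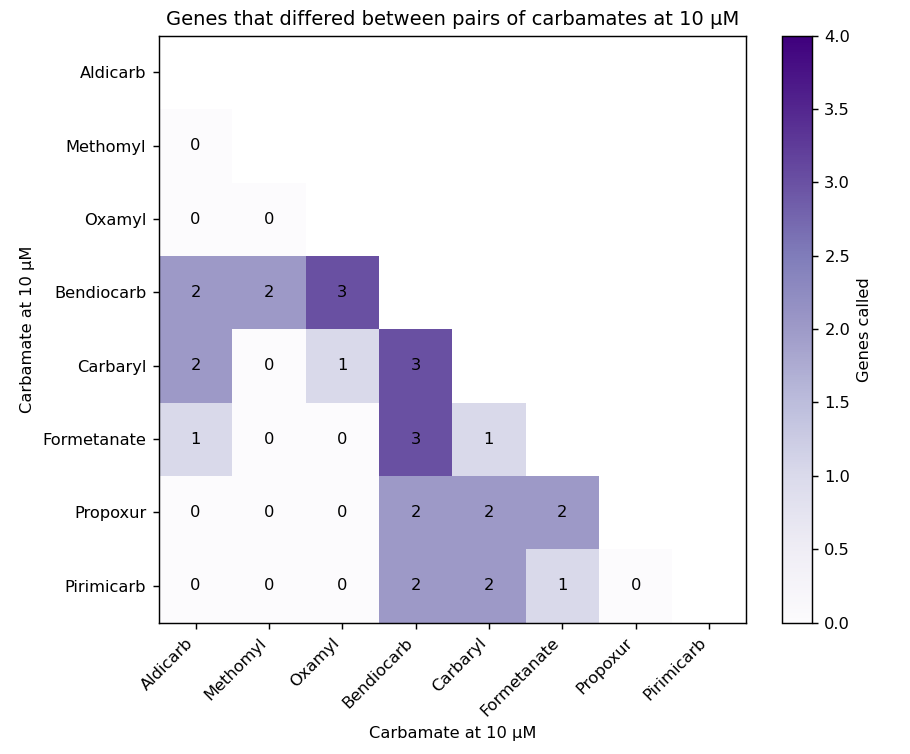
Number of genes called (limma, adjusted over 28 pairs) for each pair of the 8 carbamates at 10 µM, with both axes ordered from oxime esters to phenol and naphthol esters and pirimicarb. The 3 pairs of oxime esters hold 0 calls and the pairs with bendiocarb hold 2 or 3 each.

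No gene was called between the oxime esters and the aryl esters as classes. With 3 against 4 libraries, 0 of 13304 genes were called (limma, 0%), 570 had an unadjusted p below 0.05 and the smallest adjusted p was 0.498. The 95% interval lay within 1 log2 unit of zero for 82% of genes and within 0.5 for 47.1%, so the lack of calls does not show that the classes act alike. The gene with the smallest p was Dyrk1b, a kinase that restrains the cell cycle, at -1.08, -0.63 and -0.62 in methomyl, aldicarb and oxamyl and at 0.15, 0.24, 0.35 and 0.55 in formetanate, carbaryl, bendiocarb and propoxur. The 2 classes did not overlap in Dyrk1b, which was chosen for its small p in this same comparison, so this is a description. Such a separation of 3 from 4 libraries has an exact permutation p of 0.0571 in any single gene. The share of all genes that separated in this way was not counted.

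The deubiquitinase gene Usp21 (-0.69), the cochaperone gene Dnajc7 (0.39) and Sgol1, which protects centromeric cohesion (2.53), also did not overlap between the classes, and Vwa1, of the extracellular matrix, did (-1.11). None of these differences of oxime minus aryl esters passed. These genes too were chosen for a small p in this comparison, so their separation is a description. For Ache the difference of the classes was 0.05 ± 0.25 (SE), with an interval from -0.46 to 0.55. Chrm2 was lower in the 3 oxime esters (mean -0.39) than in the 4 aryl esters (mean 0.17). The classes only just separated, with methomyl at -0.1902 and formetanate at -0.1887. Its difference of -0.56 did not pass (limma, adjusted p = 0.9996). An exact two-sided permutation test gave p = 0.0571 for Chrm2, the smallest that 3 against 4 libraries allows, so this design cannot reach 0.05. No other cholinergic gene was at this value by the same permutation test, and the next smallest p was 0.114, in Chrm1. All measured cholinergic genes were tested in this way, so a p of this size in Chrm2 alone is no evidence that the classes differ.

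Methomyl and thiodicarb were applied at 10 and 1 µM, so their values are set side by side without a comparison. Methomyl had 162 genes more than 1 log2 unit from the vehicle mean and thiodicarb 456. Their values were 0.56 and 0.16 in Ache, -0.16 and -0.38 in Bche, and -0.11 and -0.98 in Slc44a1. The cholesterol synthesis list had medians of 0.43 and 0.10, and the astrocyte list medians of 0.12 and 0.44.

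By distance from vehicle the carbamate libraries lay within the range of the vehicle libraries. The root mean square of the log2 difference over all genes was between 0.295 (methomyl) and 0.419 (formetanate), with a median of 0.401. In vehicle it was between 0.259 and 0.516, with a median of 0.382, although each vehicle library is itself part of the mean. The number of genes beyond 1 log2 unit was 162 in methomyl, 300 in carbaryl, 324 in propoxur, 381 in oxamyl, 423 in aldicarb, 427 in bendiocarb, 441 in pirimicarb, 450 in formetanate and 456 in thiodicarb, against 100 to 810 in vehicle. Thus every carbamate was within the vehicle range by this count too. The 335 libraries of other chemicals spanned nearly the same ranges, 0.254 to 0.535 in root mean square and 111 to 867 genes. Lying inside the vehicle range by these measures therefore does not show that a compound did little.

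The spread among the 9 carbamates was similar to that among vehicle libraries. The median of an SD over 9 values tends to lie below that over 49, so the smaller figures here do not show a tighter spread. The median SD of a gene was 0.240 log2 units over the 9 carbamates and 0.254 over the 49 vehicle libraries, and 45.1% of genes had the larger SD in the carbamates. Over all 13304 genes, Spearman's correlation between 2 carbamates had a median of 0.0235 and a range from -0.0911 to 0.113 (36 pairs), and between 2 vehicle libraries a median of 0.0289. Correlations of carbamates with organophosphates had a median of 0.00622. All share the centring and batch removal of the one table, and no test was made.

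**Figure D5:**
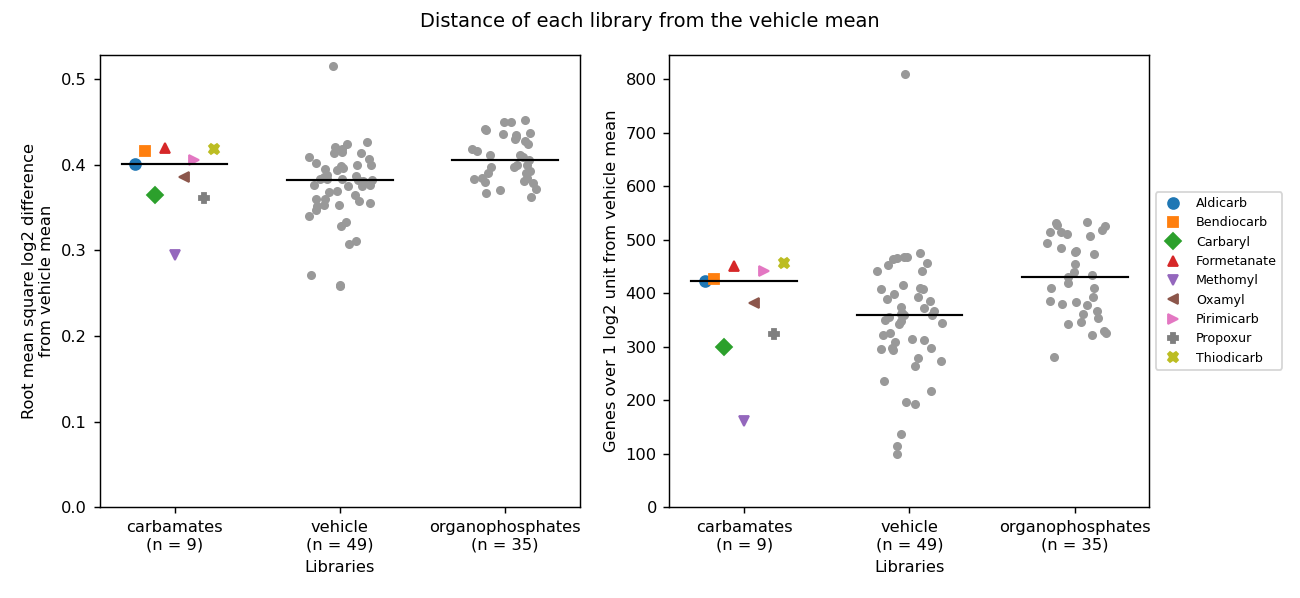
Root mean square log2 difference from the vehicle mean over 13304 genes (left) and number of genes beyond 1 log2 unit (right) for 9 carbamates (coloured), 49 vehicle and 35 organophosphate libraries (grey), with black lines at the medians. All 9 carbamates lie inside the vehicle range in both panels, and methomyl is the lowest of them.

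Gene lists of pathways that cholinergic drive or a toxic compound could move were described by their counts and medians. Across all lists no member was called in the group comparison, and 1 was called in a single compound, Sult1a1 in formetanate. Over all genes the median group difference was -0.000156, with 6641 genes higher and 6663 lower. The 28 immediate early genes, which neurons switch on within minutes of firing, had a median of -0.01, with 13 higher and 15 lower. Exposure lasted 24 h in all libraries, so an early and brief rise of these genes could have been missed. Fos ranged from -0.49 in propoxur to 0.55 in formetanate, against -1.76 to 2.48 in vehicle, and Fosl2 and Jun had group differences of 0.05 ± 0.08 and 0.11 ± 0.06 (SE).

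Downstream of muscarinic receptors, the list of Gq signalling and the M current, a potassium current that these receptors close, had 3 of 12 members higher and 9 lower, with a median of -0.08. Plcb4, a phospholipase C, was the member farthest from vehicle, at -0.64 ± 0.21 (SE, limma, adjusted p = 0.551), with bendiocarb (-1.37) and formetanate (-1.60) below the lowest vehicle library, and was at 1.39 CPM. Gnaq, the α subunit itself, was at 0.02 ± 0.04. The list median of carbaryl, -0.24, was just below the lowest vehicle library, at -0.23, and the other 8 were inside the vehicle range. Chaperones and modulators of nicotinic receptors had 3 members higher and 4 lower, among them Ric3 at -0.10 ± 0.05 and Lynx1 at -0.02 ± 0.07.

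Other serine hydrolases, which carbamates can also carbamoylate, gave 8 higher and 8 lower of 16, with a median of 0.01. Among them Faah, which splits anandamide, was at 0.07 ± 0.07, Mgll, which splits 2-arachidonoylglycerol, at 0.04 ± 0.07 and Pnpla6, the neuropathy target esterase, at 0.22 ± 0.11 (SE). Pnpla6 was above the vehicle mean in 7 of 9 compounds, from -0.10 in carbaryl to 0.62 in propoxur, all within -0.57 to 0.81 in vehicle. None of the 3 passed the test.

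Of the endoplasmic reticulum chaperones, all 10 measured members had a group difference below 0, with a median of -0.10, and 4 had an unadjusted p below 0.05, but none was called. Hspa5, which encodes BiP, was at -0.32 in carbaryl, -0.31 in formetanate, -0.22 in both oxamyl and propoxur, -0.04 in aldicarb, -0.03 in bendiocarb, -0.01 in methomyl, 0.02 in pirimicarb and 0.16 in thiodicarb. The lowest vehicle library was at -0.17, so 4 compounds were below it. The group difference was -0.11 ± 0.04 (SE, limma, adjusted p = 0.649).

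Calr, the lectin chaperone calreticulin, named after its values were seen, was at -0.10 ± 0.03 (SE, limma, adjusted p = 0.612), with 4 of 9 compounds below the vehicle range and thiodicarb above it, and Sdf2l1 at -0.41 ± 0.14 (adjusted p = 0.617). The list medians of oxamyl (-0.21) and propoxur (-0.20) were below the lowest vehicle median of -0.15, and that of thiodicarb, at 0.11, was the highest of the 9. ATF4 targets, another branch of the stress response, had 13 of 17 members higher and a median of 0.07, with Ddit3 at 0.02 ± 0.12 and Chac1 at 0.12 ± 0.14.

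Detoxification genes showed no shared change. NRF2 targets had 12 higher and 7 lower of 19, with a median of 0.02, and Hmox1 at 0.26 ± 0.11 and Gclc at -0.17 ± 0.08 (SE) with carbaryl (0.70) and formetanate (0.74) above the highest vehicle value of Hmox1, 0.67. Neither passed the test. Targets of the aryl hydrocarbon receptor had a median of -0.07, and Cyp1a1 was highest in carbaryl, at 0.90, inside the vehicle range of -2.12 to 1.76. Heat shock genes had a median of -0.01, p53 targets 0.06, metallothioneins and zinc export 0.02, cholesterol synthesis 0.02 and cell cycle genes -0.08.

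Activity-dependent secreted factors had 2 of 16 members higher and 14 lower, with a median of -0.10, and Bdnf was at -0.10 ± 0.17 and Vgf at -0.05 ± 0.19 (SE). Vehicle list medians spanned -0.47 to 1.24, and all 9 carbamates were inside. Inflammatory mediators had a median of 0.14 over 5 members, and Ccl2, a chemokine, was above its highest vehicle library (1.70) in propoxur, at 1.93. Contractile genes had a median of -0.03 and the list of xenobiotic metabolism and efflux one of 0.00.

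Cell type markers gave no call in any of the 9 compounds. List medians of the group difference were 0.01 for neurons, 0.00 for inhibitory interneurons, -0.01 for astrocytes, -0.08 for microglia and -0.01 for the oligodendrocyte lineage. All 6 mural cell and fibroblast markers were below 0, with a median of -0.24, and the median of aldicarb (-0.72) lay below the lowest vehicle library, at -0.63. Pdgfrb was at -0.29 ± 0.19, Rgs5 at -0.58 ± 0.27 and Col1a2 at -0.29 ± 0.19 (SE), none of which passed. The endothelial list had 1 measured member, Kdr, and the choroid plexus and ependyma list 2.

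Against other chemicals the carbamates were as hard to tell apart as against vehicle. Against 34 organophosphates the 8 carbamates at 10 µM gave 0 calls (limma, 0%, 789 genes at an unadjusted p below 0.05, smallest adjusted p 0.129), although without carbaryl Ucp2, a mitochondrial uncoupling protein, was called at -1.22 (adjusted p = 0.0136) and without bendiocarb Vamp8, a vesicle SNARE, at -1.72 (adjusted p = 0.0236), both named after their values were seen. Against 9 other carbamate and thiocarbamate esters that are not used as cholinesterase inhibitors there were 0 calls (0%, 601 genes unadjusted), and against all 288 other chemicals 0 (0%, 807 genes unadjusted). The intervals of the first comparison lay within 1 log2 unit of zero for 97.1% of genes.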

How the data were processed

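The deposited screen table holds log10 values. Reads had been cleaned with TagDust and mapped by the authors to mm9 using TopHat, and RPKM was computed on RefSeq models. Genes with an RPKM above zero in nearly all samples and a minimum length were kept. The values were put on a log10 scale, quantile-normalized and centred on each gene's median, and a mixed model took out batch effects of culture and sequencing. No depth is given for these libraries, so no interval from counts could be made, and a gene without reads cannot be recognised. The deposited count table of another experiment (whole-number counts, not normalized by the authors) was used for 3 vehicle columns, as CPM of the column total; its other 5 columns and a second count table, about other chemicals, were not used.

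Values were multiplied to the log2 scale. In R 4.3.3, limma 3.58.1 was fitted to all 13304 genes with a common variance prior, since centred values carry no level, and p-values were adjusted by Benjamini-Hochberg with a threshold of 0.05. Where a chemical had several libraries, their median was used against other chemicals. Single compounds took their spread from 49 vehicle libraries, and nothing says whether these came from separate animals, so the spread may be technical. Scripts were tested on simulated data. Coordinates are from GENCODE vM1 on mm9. Named genes were all measured cholinergic genes, the largest called changes of each comparison or the 5 smallest p where none was called, the largest differences of 6 pairs, and up to 4 members of each list. The compounds, gene lists and rules were chosen with earlier results of these data known. Alternatives were a threshold of 0.01, a variance trend, robust estimation, recentred libraries, variable genes only (SD above 0.1 on the log10 scale), other adjustments and single libraries or groups left out. The removal of 1 far vehicle library was chosen after seeing the data.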

Additional observations from a re-analysis of the deposited data

Results flagged for a closer look

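Of 44 measures checked over the 9 carbamates (2 library measures, the medians of 28 lists and the 14 cholinergic genes), 3 had a library whose gap to its nearest neighbour, as a share of the whole range, was above Dixon's 95% critical value for 9 samples, which chance alone exceeds in about 1 of 20 groups. Methomyl had a root mean square difference of 0.295, the lowest, with propoxur next at 0.361. Bendiocarb had a median of -0.46 in the list of xenobiotic metabolism and efflux, with thiodicarb nearest at -0.03, and also of -0.46 in contractile genes, with formetanate nearest at -0.03. Both bendiocarb medians were inside the vehicle ranges.

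The compounds differed from each other in 12 genes. Gpx2-ps1 and 4930549G23Rik differed in 7 pairs each, all with bendiocarb, and Kcnj10 in 6 pairs, all with carbaryl. Atg3, Atg4a, Camkmt, Cox7a2, Dnph1, Fam111a, Hist1h1c, Tmem107 and Zfp771 differed in 1 pair each. With 1 library for each compound, a difference between compounds and a difference between 2 cultures cannot be told apart.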

How the results depend on the processing

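No called gene that was tested under an alternative changed sign. Of the 34 calls of single compounds, 33 passed with a variance trend, with robust estimation and with recentred libraries, 29 with p-values adjusted over all 9 compounds together, 9 at a threshold of 0.01 and 34 without the far vehicle library. At 0.01 the total fell to 9 calls (aldicarb 1, bendiocarb 3, carbaryl 1, pirimicarb 2, and 0 in formetanate, oxamyl and thiodicarb), and the pairs to 17. Adjusted over all 9 compounds, bendiocarb had 6 calls and thiodicarb 2. Among variable genes only, methomyl, oxamyl and propoxur had 2 each and thiodicarb 7, and carbamates against organophosphates had 1 (Ucp2). Without the far vehicle library carbaryl had 16 and formetanate 11. Against the other carbamate esters without thiocarbamates there was 1 call, Mettl7a2 (-1.57, adjusted p = 0.00463, named after its value was seen). Leaving out 1 carbamate gave 0 to 1 calls against vehicle and 0 to 1 against organophosphates. The cause of these shifts was not tested.

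Cholinergic group differences near 0 changed sign when 1 carbamate was left out, with values of -0.0214 to 0.105 for Ache, -0.0724 to 0.017 for Chrm3, -0.00831 to 0.0579 for Chrm4, -0.0952 to 0.0381 for Chrna3, -0.0697 to 0.0568 for Chrna7 and -0.155 to 0.0669 for Chrnb1, and Chrna7 was at 0.015 without the far vehicle library. No paired analysis was possible because the labels give the screen libraries no replicate numbers and tie no carbamate library to a vehicle library. Each compound had 1 library, and the depth of the screen libraries is unknown, so its part in the calls of genes with low counts was not tested.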
